A study of Mus musculus with 6 samples.

Results

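The transcripts of the Arp2/3 complex were examined in mouse prefrontal cortex (strain C57BL/6J, postnatal day 28). The members are the 10 genes that encode its subunits: Actr2, Actr3, Actr3b, Arpc1a, Arpc1b, Arpc2, Arpc3, Arpc4, Arpc5 and Arpc5l. They were found by matching the Ensembl identifiers of the deposited table to these symbols in GENCODE M21, and all 10 were among its 17889 genes. All 10 also passed the filter for testing, a mean normalized count of at least 10 over the 6 samples, which 14969 genes passed. Each member was far above that filter, with means from 679 for Arpc1b to 7446 for Actr2.

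The samples were 3 wild-type samples (WT) and 3 samples called Hetero, whose genotype is given as Cyfip2 mutant. Both groups share the strain, the tissue and the age, and the labels give no treatment. The labels give neither the mutated part of Cyfip2 nor the allele's name, and they do not say whether the samples came from separate animals. The p-values are therefore set against a spread among samples that may be technical in part. Messenger RNA was sequenced from stranded poly(A) libraries, and a value is the normalized count that the authors deposited for a gene in a sample.

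The Arp2/3 complex binds the side of an existing actin filament and starts a new filament there, which makes branched actin networks. Arp2 and Arp3 resemble actin and form the base of the new branch, while ARPC1 to ARPC5 hold them and contact the old filament. The complex is nearly inactive alone and is switched on by proteins such as WAVE, N-WASP and WASH. CYFIP2 belongs to the WAVE regulatory complex, where WAVE is kept inactive until a signal releases it. In cortical neurons, branched actin is known for its part in dendritic spines, where excitatory synapses sit. In mammals Arp3, ARPC1 and ARPC5 each exist in alternative forms from separate genes, so a given complex holds Actr3 or Actr3b, Arpc1a or Arpc1b, and Arpc5 or Arpc5l. Work with human proteins has associated ARPC1B and ARPC5L with complexes of higher activity than ARPC1A and ARPC5.

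The alternative forms are told apart in sequencing by their sequence, so the closest stretch of each pair is shown. In each pair it is the 90 coding bases without a gap that hold the fewest differences, and capitals mark the bases that differ between the paralogs. The sequences are from the GENCODE M21 transcripts on GRCm38, 5′ to 3′ in the direction of the messenger RNA, and positions count from the A of the start codon.
Actr3 (chromosome 1, 125392905 to 125435727, minus strand), coding bases 498 to 587: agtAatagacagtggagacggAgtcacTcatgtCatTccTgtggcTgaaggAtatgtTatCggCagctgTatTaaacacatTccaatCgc
Actr3b (chromosome 5, 25759997 to 25850688, plus strand), coding bases 498 to 587: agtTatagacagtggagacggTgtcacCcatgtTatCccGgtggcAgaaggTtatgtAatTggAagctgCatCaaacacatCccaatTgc
Arpc1a (chromosome 5, 145083830 to 145108761, plus strand), coding bases 23 to 112: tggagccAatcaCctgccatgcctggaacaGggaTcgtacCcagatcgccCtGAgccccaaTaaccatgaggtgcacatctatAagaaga
Arpc1b (chromosome 5, 145114215 to 145130705, plus strand), coding bases 23 to 112: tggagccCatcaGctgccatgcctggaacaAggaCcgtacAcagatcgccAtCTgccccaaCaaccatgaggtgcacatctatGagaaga
Arpc5 (chromosome 1, 152766542 to 152775597, plus strand), coding bases 314 to 403: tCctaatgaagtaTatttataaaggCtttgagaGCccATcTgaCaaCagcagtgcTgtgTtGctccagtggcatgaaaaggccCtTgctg
Arpc5l (chromosome 2, 39005348 to 39015877, plus strand), coding bases 320 to 409: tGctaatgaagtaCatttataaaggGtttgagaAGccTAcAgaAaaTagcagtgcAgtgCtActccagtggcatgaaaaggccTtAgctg

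Even these stretches held 15 differences for Actr3 and Actr3b, 10 for Arpc1a and Arpc1b, and 15 for Arpc5 and Arpc5l. Over the whole aligned coding sequences the identity was 76.3%, 74.5% and 73.4% in the same order. The longest run of identical coding bases was 20 for the Arp3 pair and 21 for each of the other pairs. No paralogs of a pair shared a run of 31 bases anywhere in their annotated transcripts. Arpc1a and Arpc1b lie next to each other on chromosome 5 in the same direction, while the genes of the other pairs lie on different chromosomes.

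Some members overlap or resemble other genes, which bears on their values. Of the distinct 31-base words of the Actr3 transcripts, 33.4% also occur in the processed pseudogene Gm8822, which had a mean normalized count of 2.34. The 3′ end of Arpc1b overlaps Pdap1 on the opposite strand by 1937 bases, and Pdap1 had a mean of 2274. Arpc4 shares 10.8% of its words with Ttll3, which overlaps it by 1189 bases on the same strand and had a mean of 97.1. Arpc5l overlaps Wdr38 on the same strand by 821 bases, with a mean of 17.3 for Wdr38, and Rpl35 on the opposite strand by 277 bases, with a mean of 1274. Whether the counting used the strand is not given in the sources used here, and the strand could set apart only Pdap1 and Rpl35. The values of Arpc1b, Arpc4 and Arpc5l may therefore hold reads of these neighbours or lack reads that were counted for them.

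As a check of the labels, Cyfip2 read 31933, 30496 and 27503 in WT samples 1 to 3 and 20959, 21237 and 18285 in the Hetero samples. All Hetero values lay below all WT values, and the ratio of the groups, Hetero over WT, was 0.672 (95% interval 0.6 to 0.754). The limma adjusted p of Cyfip2 was 0.312, so in the main fit it did not pass the threshold of 0.05. Column totals lay between 29879143 and 30735443 because the authors had scaled the samples to each other. The spacing of low values gave estimated depths of 25500000 to 43900000 reads, with Hetero sample 3 the deepest but also the one whose spacing was least clear. At these depths the counting error of a single member value was between 1.00% and 4.83% of it. In the limma test of all 14969 genes 0 passed an adjusted p under 0.05, and 573 had an unadjusted p under 0.05. All 79 marker genes of 10 cell type and tissue lists were detected, and the excitatory neuron markers of cortex had means of at least 1862.

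The first question was how much transcript there was for each place in the complex, since 1 copy of each of the 7 subunits is needed. Values were divided by the length of the longest protein-coding transcript in kb, and paralogs were summed. Whether transcript length already entered the authors' scaling is not given in the sources used here, so levels and shares per kb are approximate. The position with the highest level was ARPC3, with 3689 ± 128 normalized counts per kb (SD over the 6 samples). ARPC2 followed with 3198 ± 53.7 and Arp3 with 3059 ± 72.6, and the sample ranges of these neighbours overlapped. ARPC1 had 2655 ± 169 and ARPC5 2520 ± 53.7 normalized counts per kb, again with overlapping ranges. Arp2 had 2051 ± 103, apart from both neighbours in the order. ARPC4 was lowest at 425 ± 40.1 normalized counts per kb, and its highest sample, 476, lay far below the lowest of Arp2, 1857.

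The order of the positions depended on which length was used. Per kb of the longest coding sequence, ARPC5 came first with 8718 ± 238 normalized counts per kb and Arp2 second with 6300 ± 317. ARPC4 remained lowest with 1916 ± 181 normalized counts per kb, and with the mean transcript length it was also lowest, at 760 ± 71.6. The longest Arpc4 transcript has 2270 bases, whereas the mean over its 4 basic protein-coding transcripts is 1270.5 bases and the coding sequence has 504. The low level of ARPC4 per kb therefore held under the 3 lengths, while its distance to the others did not.

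**Figure D1:**
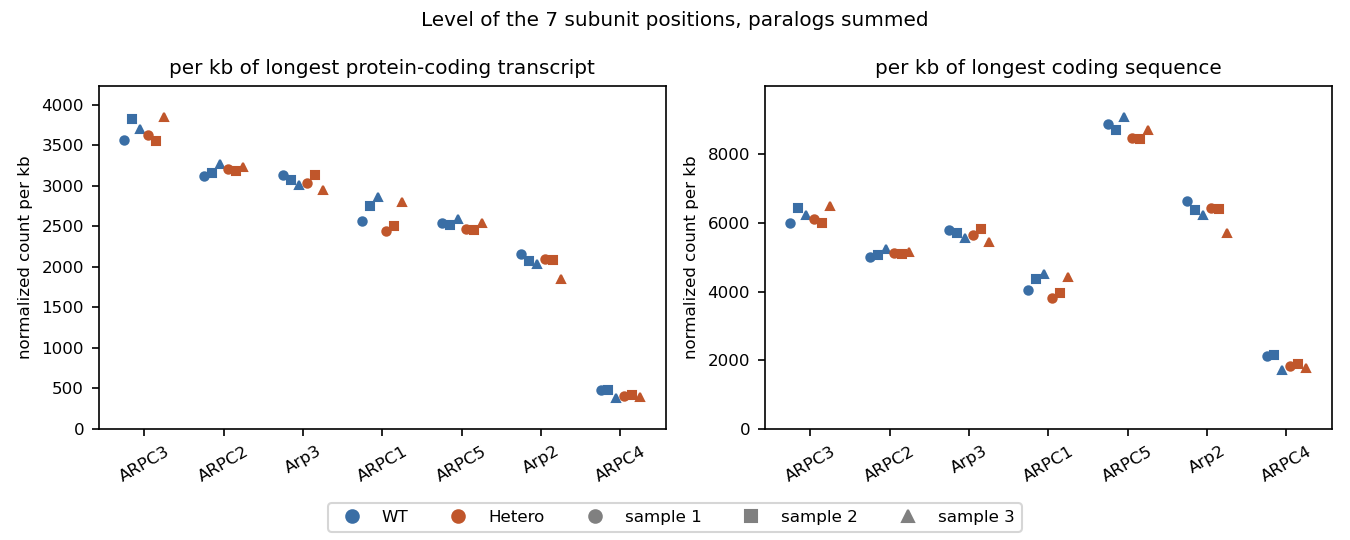
Normalized counts per kb (y axis) of the 7 subunit positions (x axis), with paralogs summed, in each of the 3 WT and 3 Hetero samples; the left panel divides by the longest protein-coding transcript and the right panel by the longest coding sequence. ARPC4 is lowest in both panels, at 425 and 1916 on average, whereas ARPC5 moves from the fifth place to the first.

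The second question was how the subunit transcripts compared between Hetero and WT. No member passed the threshold over all genes (smallest limma adjusted p 0.9996), as no gene did. At an unadjusted limma p under 0.05 there was 1 member of 10, Arpc5, where 3.83% of all tested genes had such a p. Arpc5 was lower in Hetero, as were 2.17% of all tested genes with such a p, against 1.66% that were higher. The groups did not overlap in 1 of 10 members, again Arpc5, where 8.72% of all tested genes did not overlap. The median log2 change was -0.04 over the 10 members and -0.00188 over all tested genes. The data bounded the changes closely: the 95% interval of the ratio lay within 1.3-fold in both directions for 9 of 10 members, all but Arpc1b, and within 1.5-fold for all 10.

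**Figure D2:**
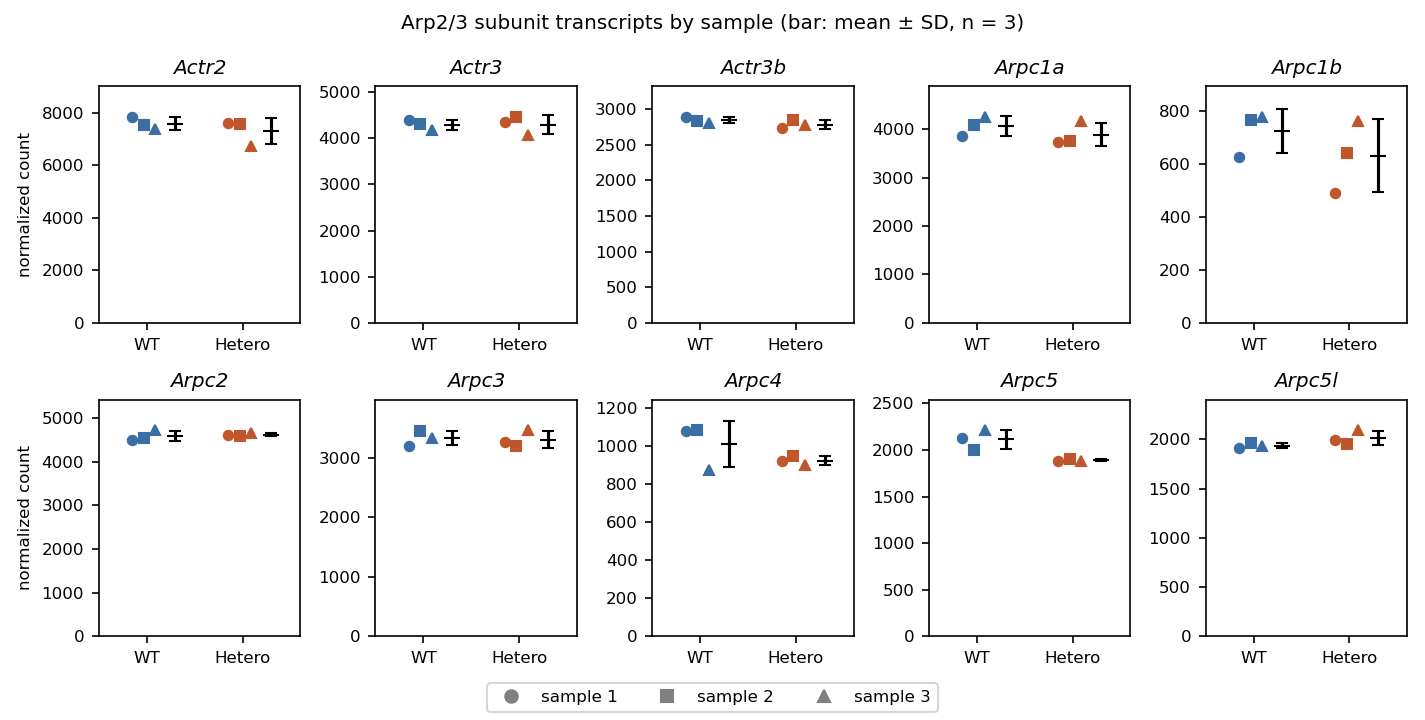
Normalized counts (y axis, from 0) of the 10 subunit genes in the 6 samples (3 per group), which are drawn as points with a shape for each sample number; bars give the mean ± SD. Only for Arpc5 do all Hetero points (1881 to 1900) lie below all WT points (2002 to 2210).

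Among the actin-related subunits, Actr2 (chromosome 11, 20062304 to 20112913, minus strand), which encodes Arp2, read 7838, 7540 and 7383 in WT and 7598, 7578 and 6742 in Hetero. The groups overlapped, and Hetero sample 3 was the lowest of the 6. The log2 change was -0.06 ± 0.06 (SE), with 0.0007 without Hetero sample 3, -0.03 without WT sample 1 and -0.09 without Hetero sample 1. Actr3, which encodes the widely expressed form of Arp3, read 4383, 4310 and 4178 in WT and 4348, 4460 and 4067 in Hetero. Its means differed by less than 2 normalized counts, at 4290 ± 104 for WT and 4292 ± 203 for Hetero (SD, n = 3 each), and the interval of the ratio was 0.917 to 1.09. Actr3b, the second form of Arp3, read 2892, 2840 and 2806 in WT and 2732, 2847 and 2778 in Hetero. Its log2 change was -0.03 ± 0.05 (SE), from -0.05 without Hetero sample 2 to -0.02 without Hetero sample 1 or WT sample 1, and it varied little in either group, by 1.52% of the mean in WT and 2.08% in Hetero.

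Actr3b made up a large part of the Arp3 transcript in every sample. Its share of Actr3 and Actr3b per kb was 45.5%, 45.4% and 45.9% in WT and 44.2%, 44.6% and 46.3% in Hetero. The groups overlapped, and the difference in the mean log2 ratio of Actr3b to Actr3 was -0.03 (exact permutation test, two-sided, 20 ways to assign the groups, p = 0.5). That difference was -0.007 without Hetero sample 1, -0.018 without Hetero sample 2 and -0.067 without Hetero sample 3. The share in WT was 39.9% ± 0.253 (SD, n = 3) per kb of coding sequence, so the level of the share depends on the length used.

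The core subunits ARPC2 and ARPC4 hold the complex together and bind the old filament. Arpc2 (chromosome 1, 74236084 to 74268209, plus strand) had the smallest range of the 10 members, with 4497, 4551 and 4716 in WT and 4621, 4578 and 4649 in Hetero, a highest value 1.05 times the lowest. Its log2 change was 0.01 ± 0.05 (SE). Arpc4 (chromosome 6, 113378115 to 113390448, plus strand) read 1077, 1080 and 871 in WT and 922, 946 and 897 in Hetero. WT sample 3 lay below all Hetero samples and the other WT samples above them, so the groups overlapped. The log2 change of Arpc4 was -0.12 ± 0.09 (SE), and without WT sample 3 it was -0.23 (limma unadjusted p = 0.0157, adjusted p = 0.9997). Without WT sample 1 it was -0.07, and without WT sample 2 also -0.07. Arpc3 (chromosome 5, 122391878 to 122414184, plus strand), which encodes a subunit at the edge of the complex next to Arp3, read 3206, 3443 and 3330 in WT and 3259, 3200 and 3461 in Hetero, a log2 change of -0.01 ± 0.06 (SE) with overlapping groups.

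ARPC1 is the propeller-shaped subunit that faces the activating proteins. Arpc1a, its main form here, read 3859, 4083 and 4254 in WT and 3736, 3758 and 4164 in Hetero. Hetero samples 1 and 2 lay below all WT samples and Hetero sample 3 among them, and the log2 change was -0.07 ± 0.06 (SE). It ranged from -0.12 without Hetero sample 3, and -0.10 without WT sample 1, to -0.03 without WT sample 3, with -0.04 without Hetero sample 1 or 2. Arpc1b, a form known for its role in blood and immune cells, where its loss in humans causes an immunodeficiency, was the most variable member. It read 629, 766 and 779 in WT and 491, 643 and 765 in Hetero, a range of 1.59-fold over the 6 samples. The groups overlapped, and the log2 change was -0.21 ± 0.16 (SE). This value rested on Hetero sample 1: it was -0.04 without that sample, -0.36 without Hetero sample 3, for which the limma unadjusted p was 0.0273 and the adjusted p 0.929, and -0.31 without WT sample 1.

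Arpc1b was the minor form of ARPC1 under every length. Its share per kb of the longest transcript was 7.89%, 8.98% and 8.78% in WT and 6.46%, 8.26% and 8.81% in Hetero. Per kb of coding sequence the mean share in WT was 14.9% ± 0.946 (SD, n = 3). The longest Arpc1b transcript, 3105 bases, reaches into the overlap with Pdap1, whereas the mean over its 2 basic protein-coding transcripts is 2249.5 bases. The difference in the mean log2 ratio of Arpc1b to Arpc1a was -0.15 (exact two-sided permutation test, p = 0.6), and it was -0.0015 without Hetero sample 1.

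The values of Arpc1b are set beside markers of other cell types. Each gene's log2 value was centred on its mean over the 6 libraries, and the level of a marker list is the average of these deviations in a library. For Arpc1b this deviation was -0.09, 0.19 and 0.22 in WT samples 1 to 3 and -0.45, -0.06 and 0.19 in Hetero samples 1 to 3. The level of 8 mature oligodendrocyte markers was -0.28, 0.05 and 0.34 in WT and -0.24, -0.05 and 0.17 in Hetero. Of these 8 markers 7 had a lower fitted value in Hetero (50.9% of all tested genes), and none was at 0. Their summed normalized counts were 91747 to 147821 among WT samples and 97073 to 126889 among Hetero samples. The level of 14 microglia markers was 0.00, 0.06 and 0.11 in WT and -0.14, -0.06 and 0.03 in Hetero. The level of 6 oligodendrocyte precursor markers was 0.02, 0.11 and 0.22 in WT and -0.26, -0.08 and -0.01 in Hetero. The level of 8 astrocyte markers was -0.05, 0.07 and 0.04 in WT and -0.12, 0.02 and 0.05 in Hetero. Among these 8 markers 6 had a lower fitted value (50.9% of all tested genes), and none was at 0. Arpc1b and these 4 marker levels, of the 10 lists, were each lower in Hetero sample 1 than in the other Hetero samples and lower in WT sample 1 than in the other WT samples. The same held for Arpc1a, with deviations of -0.04, 0.04 and 0.10 in WT and -0.09, -0.08 and 0.07 in Hetero, so this order was not particular to Arpc1b. The part of these cells in the Arpc1b values was not tested. In bulk tissue, fewer cells of a type and less RNA per cell cannot be told apart.

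ARPC5 joins ARPC1 and Arp2 to the core, and its forms were the pair, of the 3, whose proportion did not overlap between the groups. Arpc5 read 2129, 2002 and 2210 in WT and 1881, 1900 and 1886 in Hetero, so all Hetero values lay below all WT values. Its mean was 2114 ± 105 for WT and 1889 ± 9.98 for Hetero (SD, n = 3 each), and the ratio was 0.895 (95% interval 0.816 to 0.981). The log2 change was -0.16 ± 0.06 (SE), with a limma unadjusted p of 0.0228 and an adjusted p of 0.9996. Of the tested genes, 4.32% had all Hetero below all WT values. The unadjusted limma p of Arpc5 was 0.0563 when WT sample 1 was left out, 0.0922 when WT sample 3 was, and 0.0606 when Hetero sample 1 was, at log2 changes of -0.16, -0.13 and -0.16.

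Arpc5l, the alternative form of ARPC5, was not lower in Hetero. It read 1915, 1965 and 1930 in WT and 1989, 1953 and 2091 in Hetero. Hetero samples 1 and 3 lay above all WT samples and Hetero sample 2 among them, with a log2 change of 0.05 ± 0.06 (SE), or 0.03 without Hetero sample 3. The share of Arpc5l in the ARPC5 transcript per kb was 56.3%, 58.4% and 55.5% in WT and 60.2%, 59.5% and 61.3% in Hetero. All Hetero shares lay above all WT shares, at 56.7% ± 1.48 on average for WT and 60.3% ± 0.910 for Hetero (SD, n = 3 each). The mean log2 ratio of Arpc5l to Arpc5 differed by 0.21 between the groups. An exact permutation test (two-sided) gave p = 0.1, below which 3 against 3 samples cannot go, and 0.3 after Benjamini-Hochberg adjustment over the 3 pairs. The difference lay between 0.18 and 0.26 when each sample was left out in turn. The sum of both forms per kb was 2551 ± 41.8 for WT and 2489 ± 51.0 for Hetero (SD, n = 3 each), with overlapping groups.

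The length sets the level of the share but cannot alter the difference in the log2 ratio. Per kb of coding sequence the share of Arpc5l was 47.5% ± 1.51 for WT and 51.2% ± 0.950 for Hetero (SD, n = 3 each), so which form was the more abundant one could not be settled from these values. The level of 14 microglia markers, of which all 14 had a lower fitted value in Hetero (50.9% of all tested genes) and 1 was lower at an unadjusted limma p under 0.05 (2.17% of all tested genes), overlapped between the groups. Summed over the list, the WT samples had 16133 to 18085 normalized counts and the Hetero samples 15113 to 16803, and no marker was at 0. Of 6 oligodendrocyte precursor markers all 6 had a lower fitted value (50.9% of all tested genes). Of them 4 were lower at an unadjusted p under 0.05 (2.17% of all tested genes). Their level, given above for each sample, did not overlap between the groups, where 8.72% of single tested genes did not overlap. Their sums were 9047 to 10790 normalized counts among WT samples and 7773 to 9171 among Hetero samples, and no marker was at 0. Of 8 astrocyte markers 2 were lower at an unadjusted p under 0.05, and their sums overlapped, with 178971 to 202062 among WT samples and 173052 to 185616 among Hetero samples. Of 7 excitatory neuron markers 4 had a lower fitted value and 2 were lower at such a p, and none was at 0. Their sums did not overlap, with 231695 to 245371 normalized counts among WT samples and 225412 to 228191 among Hetero samples. A large part of these sums came from 1 marker, with a mean of 123149, and 8.72% of single tested genes did not overlap. The levels of the excitatory neuron list, which weigh its markers equally, overlapped. Some lists leaned the other way. Of 7 inhibitory neuron markers 5 had a higher fitted value and 1 was higher at such a p (1.66% of all tested genes). Of 8 meninges and fibroblast markers 7 had a higher fitted value and 1 was higher at such a p. All 5 blood markers had a higher fitted value. Of 10 endothelial and pericyte markers 5 were fitted lower and 5 higher, and 4 of 6 striatum markers were fitted lower. The part of any of these cell types in the Arpc5 values was not tested.

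**Figure D3:**
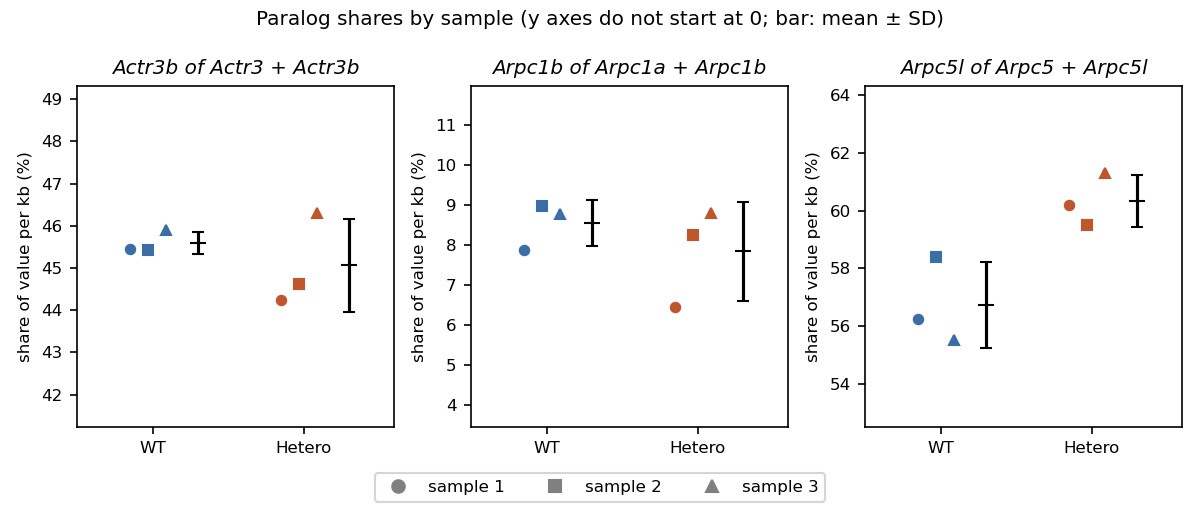
Share of the second paralog in the summed value per kb of the longest protein-coding transcript (y axis, %, not from 0) for the 3 pairs in 3 WT and 3 Hetero samples; bars are mean ± SD. The Arpc5l share lies between 55.5% and 58.4% in WT and between 59.5% and 61.3% in Hetero, while the other shares overlap between the groups.

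**Figure D4:**
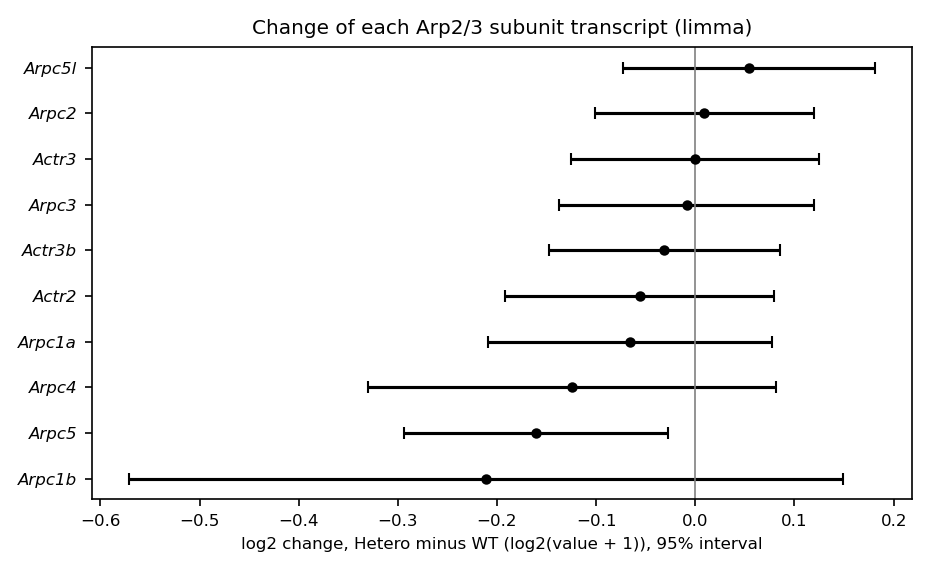
Log2 change of the 10 subunit genes between Hetero and WT (x axis, on the scale log2(value + 1)), ordered by size; points are limma estimates and bars their 95% intervals. The interval of Arpc5 (-0.29 to -0.03) excludes 0 before adjustment, and that of Arpc1b (-0.57 to 0.15) is the widest.

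The members were then described together. Their level, computed as for the marker lists over the 10 genes, was 0.01, 0.05 and 0.03 in WT samples 1 to 3 and -0.07, -0.02 and -0.00011 in Hetero samples 1 to 3. The means differed by -0.06 on the log2 scale. The groups did not overlap over all 10 genes, but they did when Actr2, Arpc4 or Arpc5 was left out, with Hetero sample 3 then above WT sample 1. Without Hetero sample 1 the difference was -0.04, and without the gene Arpc1b, which deviated most in that sample, it was also -0.04. The fitted change was below 0 for 8 members and above 0 for 2, Arpc2 and Arpc5l. That of Actr3 was so near 0 that its sign changed with TMM scaling (0.0024), and those of Actr2, Actr3, Arpc2 and Arpc3 changed sign when a single sample was left out. Over all tested genes 50.9% had a fitted change below 0.

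The subunits did not all deviate the same way in a library. Hetero sample 1 held the lowest value of 4 members (Actr3b, Arpc1a, Arpc1b and Arpc5), and WT sample 3 held the highest of 4 (Arpc1a, Arpc1b, Arpc2 and Arpc5). Hetero sample 3 held the lowest values of Actr2 and Actr3, with deviations of -0.14 and -0.08, and the highest of Arpc3 and Arpc5l, with 0.06 and 0.08. In the same library Arpc4 and Arpc5 were below their means (-0.10 and -0.08), as Actr2 and Actr3 were. Arpc4 was high in WT samples 1 and 2 (0.16 and 0.17) and low in WT sample 3 (-0.14), where Arpc1a, Arpc1b and Arpc5 were at their highest.

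**Figure D5:**
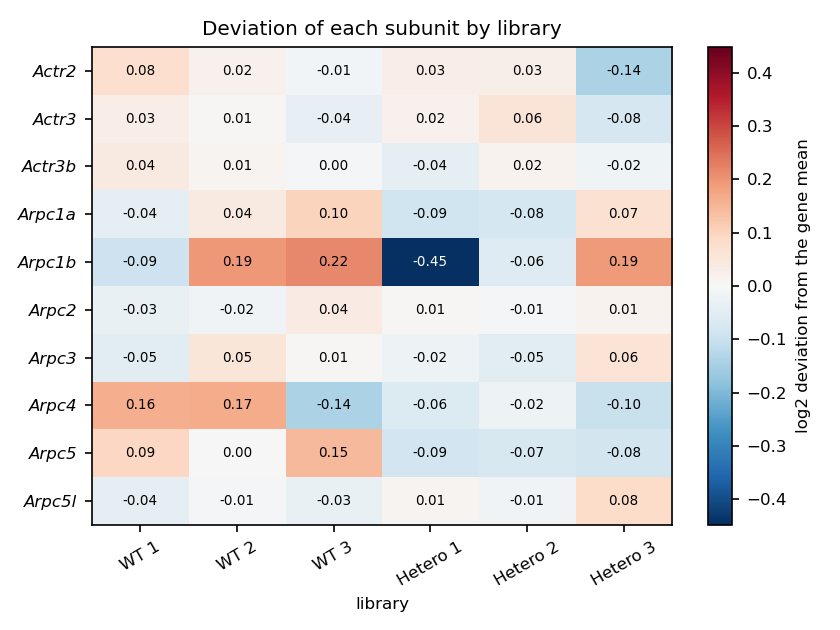
Deviation of each of the 10 subunit genes (rows) in each of the 6 libraries (columns) from that gene's average, on the log2 scale (colour and printed value). Arpc5 is below its mean in all 3 Hetero libraries (-0.09 to -0.07), and the most extreme deviation is that of Arpc1b in Hetero sample 1 (-0.45).

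The genes that act on the complex and its relatives were described by 3 lists of 30 genes in all, and all 30 were tested. None of them had an unadjusted limma p under 0.05, where 3.83% of all tested genes did, and none passed the adjusted threshold. Of the 30, 1 had groups that did not overlap, Pick1, where 8.72% of all tested genes did not overlap. Of the activators and branch stabilisers 9 of 11 had a lower fitted value in Hetero (50.9% of all tested genes), with a median log2 change of -0.05. Wasf3 and Wasf2, which encode forms of WAVE, had log2 changes of -0.13 ± 0.07 and -0.15 ± 0.09 (SE). That of Wasf3 was -0.06 without Hetero sample 3, and that of Wasf2 was -0.08 without Hetero sample 1 and -0.10 without WT sample 3. Wasf1, which encodes the WAVE form WAVE1, had 6608 ± 229 for WT and 6485 ± 107 for Hetero (SD, n = 3 each), and Washc1, of the endosomal WASH complex, had a log2 change of 0.08 ± 0.08 (SE), which was 0.03 without WT sample 1, 0.12 without WT sample 2 and 0.05 without Hetero sample 3. Cortactin, which stabilises branches and is encoded by Cttn, read 3643 ± 71.2 and 3616 ± 51.9 (SD, n = 3 each).

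Of the inhibitors and debranching factors 7 of 11 were fitted lower in Hetero (50.9% of all tested genes), and the list's median log2 change was -0.03. Gmfb, whose protein takes branches apart, had a log2 change of -0.11 ± 0.06 (SE) and Coro1c, a coronin, -0.11 ± 0.09 (SE). Gmfb had -0.06 without Hetero sample 3. Coro1c had -0.04 without WT sample 1, -0.06 without Hetero sample 1 and -0.21 without WT sample 3. Pick1, a synaptic protein reported to bind and inhibit the complex, read 1439, 1538 and 1549 in WT and 1561, 1570 and 1700 in Hetero. All Hetero values of Pick1 lay above all WT values, with a log2 change of 0.09 ± 0.06 (SE) and an unadjusted limma p of 0.181, where 4.4% of tested genes lay entirely above. Its log2 change lay between 0.05, without Hetero sample 3, and 0.12, without Hetero sample 1, and was 0.06 without WT sample 1.

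Of 8 actin-related proteins outside the complex, 5 had a higher and 3 a lower fitted value, with a median of 0.02. Actr5, a chromatin remodelling subunit, had a log2 change of -0.27 ± 0.15 (SE), Actr1b, of dynactin, 0.09 ± 0.05 (SE), and Actl6b, of neuronal chromatin remodelling, -0.06 ± 0.07 (SE). Actr5 had -0.12 without Hetero sample 2, and Actr1b had 0.06 without WT sample 1. Actl6b had -0.01 without Hetero sample 1 and -0.13 without Hetero sample 3. Wasf1 and Cttn were named after their values were seen.

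The other protein-coding genes with the profile most like the level of the complex were found by the root mean square difference over the 6 libraries. Among 14550 genes the closest were Tmem165 (0.0105), Dhx32 (0.0110), Dynll2 (0.0111), Tlk2 (0.0140) and Pgam5 (0.0147), in log2 units, where the median over these genes was 0.115. The members themselves lay between 0.0294 and 0.204 from their own mean level. These 5 genes were picked as the closest of 14550, so that the members lay farther from it is no result about them. The level itself had a root mean square of only 0.0373, so a gene that varied little was near it. With 6 libraries and so many genes, a close profile is a description of these samples only.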

How the data were processed

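The table that the authors deposited holds normalized counts, treated here as a signal, with fractional values and nearly equal column totals. Its making is known only from the submitters' processing notes, which list GRCm38, DESeq2 1.19.11, Salmon 0.11.2 and R 3.6.0 with no role; annotation, scaling formula and gene filter: not given in the sources used here. Scaling hides depth, so equal values carry more counting error in a shallower library. In each sample a single step divided at most 16.4% of low values into whole multiples (within 0.02 of a step), so whole reads could not be recovered and no count test was run.

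Of 17889 identifiers 17875 matched GENCODE M21, which gave symbols, coordinates (1-based, GRCm38) and lengths. The value was analysed as log2(value + 1), which understates changes of low genes, for genes with a mean of at least 10. Hetero and WT were compared with limma 3.58.1 in R 4.3.3 (trend and robust fitting, two-sided, Benjamini-Hochberg over all 14969 tested genes, threshold 0.05). Paralog ratios were compared with exact permutation tests in scipy 1.17.1. A test of limma used simulated data over 14969 genes for this comparison, with 50 genes changed at each size. It recovered 14% of genes changed 1.25-fold, 46% at 1.5-fold, 88% at 2-fold and 94% at 3-fold. Many changed genes ease the Benjamini-Hochberg adjustment, so a gene that changed alone would be recovered less often. Every simulated gene was given at least the median spread of all tested genes, a within-group SD of 0.12 in log2. Of the members 8 lay below that, with a median of 0.055 over all members, so recovery at their spread was not measured. Libraries of 1 group differed by a median absolute log2 of at least 0.095, so none was an exact copy of another in its group. Whether any were repeat libraries of 1 animal cannot be told from this. The labels give no batch.

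One pathway list is not reported here. The members and gene lists were chosen with earlier results of these data known. Named genes were all members, Cyfip2, the 3 genes with the smallest p in each pathway list and the 5 genes closest in profile. Alternatives were the variance model, trimmed mean of M values (TMM) or median scaling, filters, pseudocounts, a replicate block, omitted samples, other lengths and, chosen after seeing the data, removal of GC and length trends.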

Additional observations from a re-analysis of the deposited data

How the results depend on the processing

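Across the 16 alternatives to the limma fit 0 subunit genes passed the adjusted threshold, with a smallest adjusted p of 0.831 (Arpc5, with the replicate block). Over all genes the count that passed was 0 in the main analysis, 2 with the replicate block, 4 without the third sample of both groups, 1 after GC and length trends were removed (an alternative chosen after seeing the data), and 0 to 1 when each sample was left out. The subunit genes at an unadjusted p under 0.05 numbered 1 in the main analysis, 2 with the replicate block (Arpc1b and Arpc5) and 0 to 2 when each sample was left out, while over all genes that count was 573, 788 and 422 to 781. Arpc5 was lower in Hetero in 16 of 16 alternatives (log2 -0.20 to -0.13) and had an unadjusted p under 0.05 in 12. Since its groups did not overlap, leaving out samples could not change that sign. The filters, the variance model and the replicate block cannot change its log2 change, so the constant sign says little. With each sample left out, signs changed for Actr2 (-0.0855 to 0.0007), Actr3 (-0.0286 to 0.0379), Arpc2 (-0.0051 to 0.0292) and Arpc3 (-0.042 to 0.0164). Actr3 also changed sign with TMM scaling (0.0024) and without the third sample of both groups (0.019). The level of the complex differed by -0.0755 to -0.0402, and the log2 ratio of Arpc5l to Arpc5 by 0.1795 to 0.2636. With the replicate block that ratio differed by 0.2147, as the block cannot alter the difference of the means. It was higher in Hetero in 3 of 3 equal numbers. That count, and the constant sign when samples were left out, follow from groups that did not overlap and add no support. The labels do not say that equal replicate numbers pair the samples. Deviations of equal-numbered samples correlated at -0.01, 0.0 and 0.23, and those of unequal numbers at -0.18 to 0.18. So few correlations cannot settle whether the samples were paired. The cause of these changes was not tested. With 3 samples a group, changes as small as those fitted here could rarely have passed the adjusted threshold.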

Other observations

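In the cases listed here, a minority of the combinations of member and group, a subunit gene varied less among the samples than its estimated counting error. That error is itself rough, since it rests on a step that divided at most 16.4% of low values into whole multiples. The share of all tested genes that vary so little is not given, so this is no trait of the subunits. The counting error is given as its range over all 6 libraries, not over the group whose variation is given. In Hetero the coefficient of variation was 0.528% for Arpc5 (counting error 1.90% to 2.47%), 0.778% for Arpc2 (1.21% to 1.62%) and 2.66% for Arpc4 (2.75% to 3.72%). In WT it was 1.32% for Arpc5l (1.80% to 2.50%) and 1.52% for Actr3b (1.57% to 2.07%). With 3 samples the SD is itself imprecise, and no test of a difference in spread was run.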
